A study of Mus musculus with 4 samples.

Results

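The 49 genes described here encode molecular chaperones, their cochaperones and the subunits of the CCT chaperonin, out of 24062 genes in the deposited table. They were chosen by gene family and, in part, on measured values, because some of them had been noted for lower values in germ free recipients. Differences between the recipient groups are therefore given for these genes as descriptions, with no test of the list. Of the 49 genes, 48 passed the filter on low counts, as did 11271 genes in all. The cells were gBT-I cells, CD8+ T cells carrying a transgenic receptor for the glycoprotein B peptide of herpes simplex virus. All came from gBT-I transgenic donors kept specific pathogen free (SPF), whose splenocytes were cultured with the peptide and LPS, received IL-1 on days 2 and 3, and were injected intravenously on day 4 into C57BL/6 recipients. The GF group is 2 libraries of splenic gBT-I cells sorted 7 days after transfer from germ free recipients, and the SPF group is 2 libraries of the same cells sorted on the same day from SPF recipients. The labels give neither the age of the mice nor how many were used or pooled per library, so the spread between replicates may be technical, and no group of untransferred cells was analysed here.

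Chaperones hold unfolded or partly folded proteins and let them fold without aggregating. HSP70 proteins bind short stretches of nascent or damaged chains, J-domain proteins of the HSP40 family deliver clients to them and trigger their ATPase, and exchange factors reset the cycle. HSP90 takes over late folding intermediates such as kinases and steroid receptors with the help of cochaperones, the ring-shaped CCT complex folds actin and tubulin, and separate sets of chaperones serve the endoplasmic reticulum (ER) and the mitochondria. In the cytosol many of these genes are induced by the transcription factor HSF1, and in the ER by the unfolded protein response. Activated T cells, which grow and secrete proteins, are known to use both systems.

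Total counts ranged from 11544960 to 14431533 per library. Markers of CD8 T cells were abundant (a summed level of 6271 and 5378 CPM in GF and 7204 and 5537 CPM in SPF over 8 genes; CPM are counts scaled to a common library total, here without TMM). B cell markers summed to 103.7 and 28.5 CPM in GF and 82.8 and 25.9 CPM in SPF over 9 genes, and NK cell markers to 71.7 and 66.5 CPM in GF and 99.8 and 95.04 CPM in SPF over 7 genes, of which Klra4 and Klra8 were at 0 in every library. Macrophage markers reached at most 8.40 CPM and erythroid markers at most 1.56 CPM in any library, with the 5 globin genes at 0 throughout. The NK sum was thus lower in both GF libraries. Klrb1c was its most abundant gene, with 34.4 and 28.6 CPM in GF and 49.98 and 39.6 CPM in SPF. Eomes was lower too, with 12.9 and 9.01 CPM in GF and 16.7 and 16.4 CPM in SPF. So was Fcer1g, with 3.31 and 3.95 CPM in GF and 11.9 and 5.92 CPM in SPF. Klrc2 overlapped, with 20.9 and 24.8 CPM in GF and 20.96 and 33.2 CPM in SPF. Ncr1 reached at most 0.26 CPM in any library. Whether the NK sum reflects NK cells was not tested. Neither was its part in the differences below, nor that of B cell RNA, which followed the replicate number. In these bulk samples, fewer cells of a type and less RNA per cell cannot be told apart.

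Promoter sequences from RefSeq (GRCm38.p6, the assembly also called mm10) covered 42 of the 49 genes, each window running from 250 bases before to 50 bases after an annotated start. They are shown because the classes differ in the letters they carry. The heat shock element, which HSF1 binds, was searched as 3 alternating units (GAANNTTCNNGAA) on both strands, and occurred in 198 of all 32851 promoter windows (0.603%). It was found for 5 of the 42 genes, namely Chordc1, Hsph1, Dnajb6, Hspd1 and Hspe1. The 42 genes have 52 windows, so a count of genes and the share of windows differ in unit. Hsp90aa1, Hsp90ab1, Hspa8, Dnajc2, Hsf1, Cct4 and Hspa9 had no window and were not searched for this element. In the sequences below, capitals mark this element, and overlapping matches run together.
Chordc1 promoter, chr9:18292017-18292316, plus strand: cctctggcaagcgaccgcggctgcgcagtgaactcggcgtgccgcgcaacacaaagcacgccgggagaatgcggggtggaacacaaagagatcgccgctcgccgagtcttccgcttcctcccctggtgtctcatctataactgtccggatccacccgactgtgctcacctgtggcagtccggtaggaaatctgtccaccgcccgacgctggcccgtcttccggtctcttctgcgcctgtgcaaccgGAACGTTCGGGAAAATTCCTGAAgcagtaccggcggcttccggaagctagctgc
Hsph1 promoter, chr5:149636266-149636565, minus strand: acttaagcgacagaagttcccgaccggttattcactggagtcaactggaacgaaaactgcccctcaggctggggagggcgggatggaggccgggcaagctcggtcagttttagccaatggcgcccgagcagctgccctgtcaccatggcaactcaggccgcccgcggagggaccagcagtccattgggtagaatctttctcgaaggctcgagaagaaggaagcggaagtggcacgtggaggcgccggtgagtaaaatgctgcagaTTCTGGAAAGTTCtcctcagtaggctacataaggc
Hspe1 promoter, chr1:55087898-55088197, plus strand: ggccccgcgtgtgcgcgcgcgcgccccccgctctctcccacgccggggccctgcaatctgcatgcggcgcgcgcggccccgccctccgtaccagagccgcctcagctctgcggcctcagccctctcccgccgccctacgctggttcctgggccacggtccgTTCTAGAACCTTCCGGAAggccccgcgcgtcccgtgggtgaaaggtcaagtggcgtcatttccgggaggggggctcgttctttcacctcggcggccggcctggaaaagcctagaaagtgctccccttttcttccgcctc
Chordc1 had 3 overlapping matches across its start site, and the Hspe1 window had 2, the same letters that lie in the Hspd1 promoter, since these genes are divergent neighbours. The shorter form with 2 units (GAANNTTC), which is contained in every match of the longer one, was found for 12 of the 42 genes and in 7.86% of all windows. No match in a window says only that these letters are not within it.

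The ER stress element, which carries the unfolded protein response, was searched by its full form on both strands (the CCAAT box and the CCACG box with 9 bases between them) and occurred in 39 of all windows (0.119%). It was found in 5 of the 9 ER chaperone genes, namely Hspa5, Hsp90b1, Calr, Canx and Pdia6, and in 0 of the other chaperone genes with a window. Capitals mark it in the following sequences, where Hsp90b1 carries 2 matches.
Hspa5 promoter, chr2:34771840-34772139, plus strand: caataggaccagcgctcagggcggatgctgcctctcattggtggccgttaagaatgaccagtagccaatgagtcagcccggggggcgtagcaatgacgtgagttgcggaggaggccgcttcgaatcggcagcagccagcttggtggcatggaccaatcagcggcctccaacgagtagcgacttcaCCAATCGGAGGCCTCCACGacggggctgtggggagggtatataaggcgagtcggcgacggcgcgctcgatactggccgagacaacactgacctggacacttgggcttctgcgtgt
Hsp90b1 promoter, chr10:86705395-86705694, minus strand: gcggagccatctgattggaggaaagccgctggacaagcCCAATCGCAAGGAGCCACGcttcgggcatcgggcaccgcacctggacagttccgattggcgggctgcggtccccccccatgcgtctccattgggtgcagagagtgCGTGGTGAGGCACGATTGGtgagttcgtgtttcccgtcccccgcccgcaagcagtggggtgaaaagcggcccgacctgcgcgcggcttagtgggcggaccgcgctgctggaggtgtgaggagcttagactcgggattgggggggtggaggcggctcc
A match is a description of the letters, not evidence of binding in these cells.

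**Figure D1:**
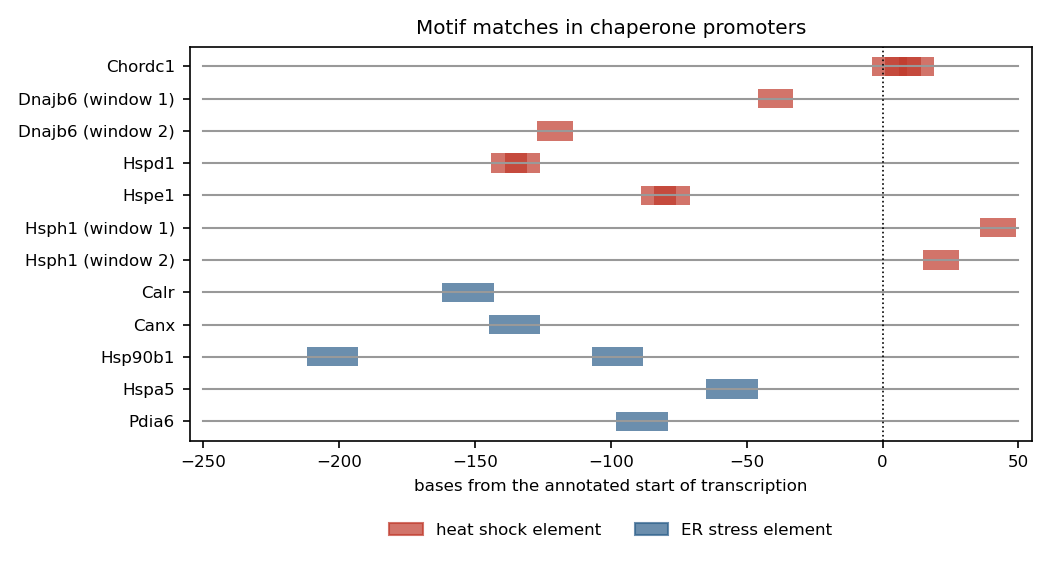
Positions of exact matches to the heat shock element (red) and the ER stress element (blue) in promoter windows of chaperone genes, in bases from the annotated start of transcription (dotted line); darker red marks overlapping matches. The 5 genes with heat shock elements are cytosolic or mitochondrial, and the 5 with ER stress elements are all ER chaperones.

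Chaperone transcripts took a smaller share of the GF libraries. Over the 49 genes, 0.928% and 0.982% of counts were found in GF replicates 1 and 2, against 1.303% and 1.227% in SPF replicates 1 and 2. Of the 48 genes that passed the filter, 43 had a lower fitted value in GF, as did 50.3% of all tested genes. In 38 of the 48, every GF value was under every SPF value, which held for 16.4% of all tested genes. The reverse order, seen in 16.8% of all tested genes, was found for 1 chaperone gene, Fkbp5. These shares include genes chosen for low GF values and are not read further. The median log2 fold change of GF over SPF was -0.34 over the 48 genes and -0.004 over all tested genes.

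No chaperone gene passed the edgeR quasi-likelihood test with Benjamini-Hochberg adjustment over all genes, and neither did any other gene (0 of 11271, 0%, smallest adjusted p = 0.855). At an unadjusted p under 0.05, 7 chaperone genes (Stip1, Fkbp4, Chordc1, Cacybp, Ptges3, Dnaja1 and Pdia6) were lower and 0 higher in GF. Of all tested genes, 1.05% were lower and 2.17% higher at that threshold. The count of 7 includes genes chosen for low GF values and is not read further. DESeq2 also called 0 chaperone genes (0.00887% of all genes called lower and 0.071% higher). The calls depended on single libraries. Without SPF replicate 1, edgeR called 1 chaperone gene lower (Hsph1; 0.0173% of all genes lower and 0.129% higher), and without SPF replicate 2 it called 7 lower (Hspe1, Cacybp, Ptges3, Dnaja1, Hsph1, Fkbp4 and Chordc1) and 2 higher (Hspa1a and Hspa1b; 4.7% of all genes lower and 6.77% higher). Each of those fits leaves a lone library in 1 group, which is assumed to vary like the other group, and the smallest two-sided p that exact permutation allows with 2 libraries a group is 0.33.

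**Figure D2:**
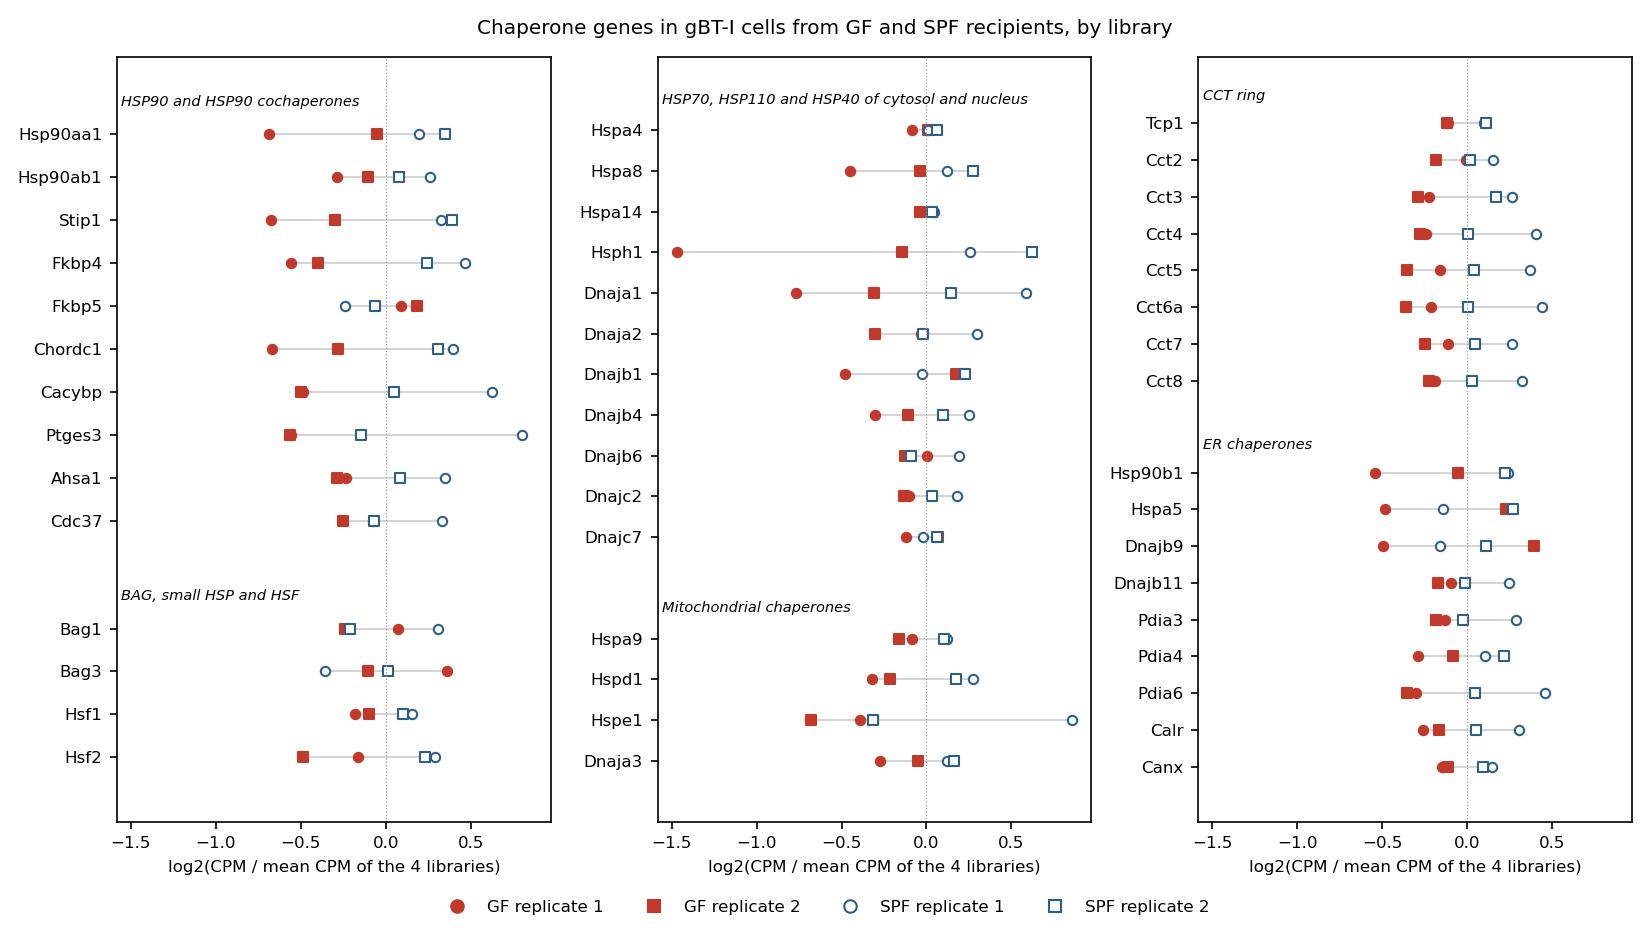
Level of each chaperone gene in each library as log2 of its TMM-scaled CPM over the mean of the 4 libraries (GF red and filled, SPF blue and open; circles replicate 1, squares replicate 2). In 38 of the 48 tested chaperone genes the GF points lie left of the SPF points, an order held by 16.4% of all tested genes. Hspa1a and Hspa1b, which varied over a wider range, are left out of the plot, as is Hspb1, which was not tested.

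HSP90 and its cochaperones showed the lowest median of the 6 classes, a log2 fold change of -0.71 over 10 genes. The groups were separated, with GF lower, in 9 of the 10, beside 16.4% of all tested genes. This count and median, and those of the classes below, include genes chosen for low GF values. Neither they nor the order of the classes are read further. Hsp90aa1, the stress-inducible HSP90 of the cytosol (mm10 chromosome 12 from 110690605 to 110702728), had 219.7 and 341 CPM in GF replicates 1 and 2, against 406 and 450.1 CPM in SPF replicates 1 and 2 (CPM scaled by TMM, as in all values that follow). Its log2 fold change was -0.61 (SE 0.28), and the GF replicates differed more from each other than the SPF replicates did. It was -0.33 without GF replicate 1 and -0.97 without GF replicate 2. Hsp90ab1, the constitutive HSP90, had 873 and 989 CPM in GF, against 1272 and 1123 CPM in SPF, with a log2 fold change of -0.36 (SE 0.23). Per kilobase of transcript, Hsp90ab1 averaged 422 CPM and Hsp90aa1 108 CPM over the 4 libraries. The ratio of Hsp90aa1 to Hsp90ab1 counts was 0.252 and 0.345 in GF and 0.319 and 0.401 in SPF, so the groups overlapped in this ratio.

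Several cochaperones of the HSP90 cycle had groups well apart. Stip1, the HOP protein that bridges HSP70 and HSP90 (mm10 chromosome 19 from 7020702 to 7039967), had 90.6 and 117 CPM in GF, against 181 and 189.9 CPM in SPF, a log2 fold change of -0.83 (SE 0.22). Fkbp4, an immunophilin of steroid receptor complexes (mm10 chromosome 6 from 128429735 to 128438677), had 109 and 122 CPM in GF, against 222 and 190.3 CPM in SPF, a log2 fold change of -0.83 (SE 0.21). Chordc1, a zinc-binding HSP90 partner (mm10 chromosome 9 from 18292125 to 18317442), had 81.1 and 106 CPM in GF, against 169 and 159 CPM in SPF, a log2 fold change of -0.81 (SE 0.23). In these 3 genes the gap between the groups was wider than the gap between replicates of either group.

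Ptges3, which encodes p23, the cochaperone that stabilises the closed HSP90 dimer, had 101 and 100.2 CPM in GF, against 258 and 134 CPM in SPF, with a log2 fold change of -0.96 (SE 0.35). Cacybp, which encodes the calcyclin-binding protein, had 63.7 and 63.2 CPM in GF, against 138 and 92.5 CPM in SPF, with a log2 fold change of -0.86 (SE 0.26). In both genes the GF libraries were nearly equal, and the size of the difference rested on SPF replicate 1: without it, the log2 fold change was -0.41 for Ptges3 and -0.54 for Cacybp. Ahsa1, the activator of the HSP90 ATPase, had 100.5 and 96.8 CPM in GF, against 150.4 and 125 CPM in SPF, and Cdc37, the adaptor for kinase clients, had 249.5 and 220.3 CPM in GF, against 329.9 and 250.02 CPM in SPF. The log2 fold change was -0.48 (SE 0.21) for Ahsa1 and -0.30 (SE 0.24) for Cdc37, without overlap of the groups in either gene. For Cdc37, whose GF replicate 1 and SPF replicate 2 were nearly equal, it was -0.09 without SPF replicate 1. With each library's trend with transcript length removed, the log2 fold change of Cdc37 was -0.72. That value rests on a length of 7851 nt, in the decile of longest transcripts, from the transcript chosen for this gene. Other transcripts of Cdc37 were not tried.

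Fkbp5 had the opposite order. It encodes FKBP51, a relative of Fkbp4 in the same receptor complexes and a known target of the glucocorticoid receptor, and had 151 and 161 CPM in GF, against 119.9 and 135 CPM in SPF. Both GF libraries lay above both SPF libraries, with a log2 fold change of 0.29 (SE 0.20). It was positive in all 12 settings (the reported fit and 11 alternatives), between 0.19 and 0.37, while that of Fkbp4 lay between -0.95 and -0.72.

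**Figure D3:**
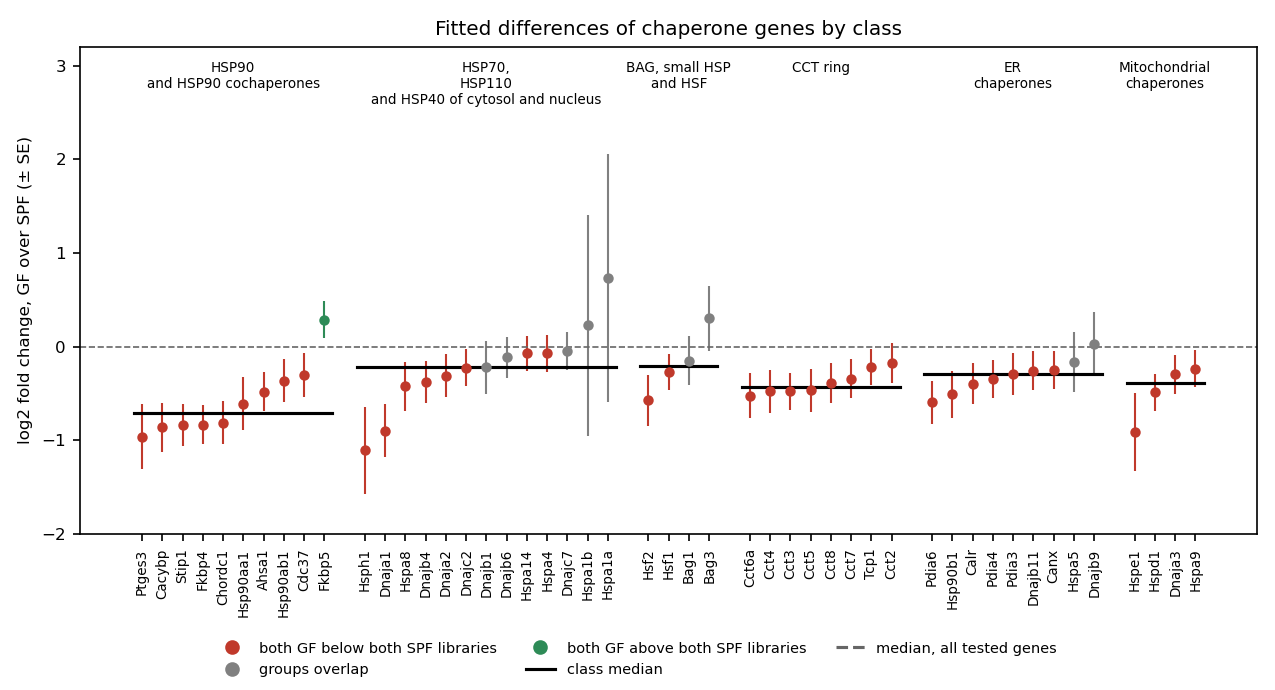
Fitted log2 fold change of GF over SPF (± SE, n = 2 libraries each) for the 48 tested chaperone genes by class, coloured by whether the libraries of the groups overlap; black lines are class medians and the dashed line is the median of all tested genes (-0.004). The HSP90 class has its median at -0.71 with Fkbp5 above 0, and the CCT ring lies entirely below 0.

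The cytosolic HSP70 machine was less uniform, with a median log2 fold change of -0.22 over 13 genes. GF was lower without overlap in 8, beside 16.4% of all tested genes. The median was -0.48 without GF replicate 2 and -0.15 without SPF replicate 1. Hsph1, an HSP110 exchange factor for HSP70 (mm10 chromosome 5 from 149614287 to 149636376), had the lowest log2 fold change of the 48 genes. It had 66.9 and 167 CPM in GF replicates 1 and 2, against 221 and 284 CPM in SPF replicates 1 and 2, a log2 fold change of -1.11 (SE 0.46). GF replicate 1 stood far below the other 3 libraries, and without it the log2 fold change was -0.60. Dnaja1, a J-domain protein that farnesyl groups tether to membranes (mm10 chromosome 4 from 40722150 to 40737149), had 204 and 281 CPM in GF, against 522 and 383 CPM in SPF, a log2 fold change of -0.90 (SE 0.28), with no overlap of the groups. Hspa8, the constitutive HSP70 (HSC70) and the most abundant of the 48, had 1146 and 1523 CPM in GF, against 1699 and 1888 CPM in SPF, a log2 fold change of -0.43 (SE 0.26) that was -0.24 without GF replicate 1 and -0.65 without GF replicate 2. The ratio of Hsph1 to Hspa8 counts was 0.0583 and 0.110 in GF and 0.130 and 0.150 in SPF, so the groups did not overlap in it.

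Other J-domain genes and exchange factors differed less or overlapped between groups. Dnajb1, a heat-inducible J-domain gene, had 108 and 169.8 CPM in GF, against 148 and 176 CPM in SPF, and the groups overlapped, with GF replicate 1 lowest. Dnaja2 had 201 and 167 CPM in GF, against 253 and 203 CPM in SPF, a log2 fold change of -0.31 (SE 0.23). Dnajb6, which suppresses aggregation, had 216 and 198 CPM in GF, against 246 and 203 CPM in SPF, and Dnajc7, a J-domain protein with TPR repeats, had 212 and 242 CPM in GF, against 227 and 241 CPM in SPF, with overlapping groups in both. Hspa4, a second HSP110, had 198 and 210.4 CPM in GF, against 211 and 218 CPM in SPF, a log2 fold change of -0.07 (SE 0.20). Hspa14 and Dnajc2 encode partners in the complex that receives chains at the ribosome. Hspa14 had 82.4 and 82.5 CPM in GF, against 87.1 and 86.5 CPM in SPF, and Dnajc2 had 79.5 and 78.1 CPM in GF, against 96.9 and 87.2 CPM in SPF, which came to -0.07 (SE 0.19) for Hspa14 and -0.22 (SE 0.20) for Dnajc2 on the log2 scale. For Hspa4 and Hspa14 the groups did not overlap although the difference was smaller than its standard error. Dnajb4, a less abundant J-domain gene, had 24.6 to 28.1 CPM in GF, against 32.5 to 36.2 CPM in SPF, without overlap.

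The stress-inducible HSP70 genes Hspa1a and Hspa1b were low in the libraries numbered 1. Hspa1b had 3.69 to 19.3 CPM in GF, against 1.66 to 17.9 CPM in SPF, and Hspa1a had 0.55 to 5.44 CPM in GF, against 0.26 to 3.25 CPM in SPF, which rests on 8 and 76 counts in GF and 3 and 46 counts in SPF. In both genes and both groups replicate 2 was the higher library. The log2 fold change was 0.23 (SE 1.18) for Hspa1b and 0.73 (SE 1.33) for Hspa1a, in each case smaller than its error. The immediate early genes, a list of 10 taken as markers of cell handling, showed a like order by number in their sums. These were 1258 and 1980 CPM in GF and 958 and 1521 CPM in SPF (for this list, CPM without TMM). The most abundant of them, Junb, had 369 and 531 CPM in GF and 195 and 419 CPM in SPF, also higher in replicate 2. Jund went the other way, with 226 and 211 CPM in GF and 290 and 199 CPM in SPF. Ier2 was higher in replicate 1 in SPF and nearly equal in GF, and the rest of the list was higher in replicate 2. The part of handling in the chaperone values was not tested.

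Regulators and other HSP70 partners had a median log2 fold change of -0.21 over 4 tested genes (-0.054 without SPF replicate 1). GF was lower without overlap in 2, beside 16.4% of all tested genes. Hsf1, the master factor of the heat shock response, had 88.8 and 93.9 CPM in GF, against 112 and 108 CPM in SPF, a log2 fold change of -0.27 (SE 0.19), with groups that did not overlap. Its relative Hsf2 had 9.09 to 11.3 CPM in GF, against 14.9 to 15.5 CPM in SPF, a log2 fold change of -0.58 (SE 0.27). The exchange factor gene Bag1 had 129 and 104 CPM in GF, against 153 and 107 CPM in SPF and overlapped, as did Bag3, a partner of HSP70 and small HSPs, with 6.44 to 8.88 CPM in GF, against 5.42 to 6.99 CPM in SPF. Hspb1, the small heat shock protein HSP27, had 1 and 0 counts in GF and 2 and 2 counts in SPF and was not tested; 0 counts in GF replicate 2 allow up to 0.208 CPM (3 counts, counting error only).

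The CCT ring had the narrowest range of log2 fold changes of the 6 classes. For all 8 subunit genes the GF values lay under the SPF values, as they did for 16.4% of all tested genes. The log2 fold changes of the subunits ran from -0.52 to -0.18, with a median of -0.43. Cct3 had 183 and 176 CPM in GF, against 258 and 242 CPM in SPF, a log2 fold change of -0.48 (SE 0.20). Tcp1 itself, subunit alpha, had 197 and 196 CPM in GF, against 228 and 229 CPM in SPF, a log2 fold change of -0.22 (SE 0.19), and its replicates were nearly equal in both groups. Cct6a had 191 and 173 CPM in GF, against 301 and 223 CPM in SPF, a log2 fold change of -0.52 (SE 0.24). In every subunit gene other than Tcp1, SPF replicate 1 was the highest library.

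The remaining subunits had the same order of libraries. Cct4 had 241 and 235 CPM in GF, against 378 and 286 CPM in SPF, Cct5 had 268 and 234 CPM in GF, against 387 and 308 CPM in SPF, and Cct8 had 219 and 214 CPM in GF, against 312 and 255 CPM in SPF. Cct7 had 203 and 184 CPM in GF, against 264 and 227 CPM in SPF, and Cct2 had 366 and 324 CPM in GF, against 408 and 372 CPM in SPF, where GF replicate 1 and SPF replicate 2 were close. Without SPF replicate 1 the median of the class was -0.25, and all 8 log2 fold changes remained negative. Per kilobase of transcript, the subunit genes averaged between 86.8 CPM (Tcp1) and 188 CPM (Cct2) over the 4 libraries, although each ring holds its 8 subunits in equal number. Cct2 and Cct5 were the highest, at 188 and 161 CPM per kilobase, and the other 6 lay between 86.8 and 115.

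ER chaperones had a median log2 fold change of -0.29 over 9 genes. GF was lower without overlap in 7, beside 16.4% of all tested genes. Hsp90b1, the HSP90 of the ER (GRP94), had 309 and 433 CPM in GF replicates 1 and 2, against 531 and 526 CPM in SPF replicates 1 and 2, a log2 fold change of -0.51 (SE 0.25). The SPF replicates were nearly equal, but the GF replicates were not, and the value was -0.29 without GF replicate 1 and -0.78 without GF replicate 2. Hspa5, which encodes BiP, the ER HSP70 and a main target of the unfolded protein response, had 316 and 519 CPM in GF, against 401 and 535 CPM in SPF, and the groups overlapped. Its J-domain partner Dnajb9 (ERdj4), another such target, had 39.7 and 73.6 CPM in GF, against 50.2 and 60.5 CPM in SPF, where the GF libraries were the lowest and the highest of the 4. These 2 genes followed the replicate number, with higher values in the libraries numbered 2. Dnajb11 (ERdj3) had 104 and 98.6 CPM in GF, against 132 and 110.1 CPM in SPF, a log2 fold change of -0.26 (SE 0.21).

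Calr, the lectin chaperone calreticulin, which also serves in the loading of peptides on MHC class I, had 332 and 353 CPM in GF, against 490.0 and 410.5 CPM in SPF, a log2 fold change of -0.39 (SE 0.22). Its membrane-bound counterpart Canx had 259 and 267 CPM in GF, against 319 and 307 CPM in SPF, a log2 fold change of -0.25 (SE 0.20). Pdia3 (ERp57), the disulfide isomerase that works with both, had 310.5 and 299.7 CPM in GF, against 415 and 333 CPM in SPF, a log2 fold change of -0.29 (SE 0.22). None of the 3 overlapped between groups. Pdia6 had 78.9 and 76.1 CPM in GF, against 134 and 100.4 CPM in SPF, a log2 fold change of -0.59 (SE 0.23), and Pdia4 had 94.3 and 109 CPM in GF, against 124 and 134 CPM in SPF, a log2 fold change of -0.34 (SE 0.20). Without SPF replicate 1 the log2 fold change was -0.26 for Calr, -0.13 for Pdia3, -0.37 for Pdia6 and -0.12 for Dnajb11. Without GF replicate 2 the median of the ER class was -0.45.

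The 4 mitochondrial chaperone genes all had GF values under their SPF values, as did 16.4% of all tested genes. The median log2 fold change of the 4 was -0.39. Hspd1, the HSP60 chaperonin, had 152 and 163 CPM in GF, against 229 and 214 CPM in SPF, a log2 fold change of -0.49 (SE 0.20), a difference wider than the gap between replicates. Hspe1, its HSP10 lid, had 89.9 and 73.4 CPM in GF, against 213 and 94.7 CPM in SPF, a log2 fold change of -0.91 (SE 0.42). SPF replicate 1 alone was high for Hspe1, and without it the log2 fold change was -0.21; with each library's trend with length removed it was -0.54. The ratio of Hspd1 to Hspe1 counts was 1.69 and 2.23 in GF and 1.08 and 2.26 in SPF, so these neighbours, which share a promoter region, did not keep a fixed ratio. Hspa9 (mortalin), the mitochondrial HSP70, had 203 and 193 CPM in GF, against 234 and 231 CPM in SPF, a log2 fold change of -0.24 (SE 0.19), and its J-domain partner Dnaja3 had 39.1 to 45.7 CPM in GF, against 51.5 to 52.8 CPM in SPF, a log2 fold change of -0.30 (SE 0.21).

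Genes outside the 49 in the same pathways are given by list. Of all tested genes, 50.3% were lower in GF in fitted value. These lists leave out the 49, which were chosen in part for low GF values. The lists too were chosen with earlier results of these data known. Genes low in GF may thus be fewer in them, and their counts and medians are not read further. Of 51 tested genes for other HSP70, HSP40 and HSP90 proteins and their cofactors, 30 were lower and 21 higher in GF in fitted value, and the median was -0.06. The groups were separated with GF lower in 8 and GF higher in 6, shares of 15.7% and 11.8% beside 16.4% and 16.8% of all tested genes. At an unadjusted p under 0.05, 3 were lower and 0 higher (1.05% and 2.17% of all tested genes). The 3, named after their values were seen, were Hspa13, Dnajb2 and St13, a partner of HSP70, at -0.91 (SE 0.34), -0.87 (SE 0.26) and -0.63 (SE 0.23) on the log2 scale. The 4 most abundant were Fkbp8, Dnajc5, Bag6 and Dnajc8. Bag6, which guards membrane proteins before insertion, had 217 and 250.2 CPM in GF, against 139.7 and 203 CPM in SPF, above SPF in both libraries, while Fkbp8, an immunophilin of the outer mitochondrial membrane, had 309.5 and 261 CPM in GF, against 327 and 269 CPM in SPF and overlapped. Dnajc5, a J-domain protein of secretory vesicles, and Dnajc8, which is linked to splicing, overlapped too, at 0.24 (SE 0.29) for Dnajc5 and -0.28 (SE 0.26) for Dnajc8 on the log2 scale.

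The unfolded protein response and ER folding list divided evenly, with 16 of 31 tested genes lower and 15 higher, and a median of -0.04. The groups were separated with GF lower in 4 (12.9%) and GF higher in 2 (6.45%), beside 16.4% and 16.8% of all tested genes. Atf4, a transcription factor of that response, had 253 and 272 CPM in GF, against 236 and 259.7 CPM in SPF, and the disulfide isomerase gene P4hb had 259.6 and 237 CPM in GF, against 258 and 252 CPM in SPF, with overlapping groups in both. Edem1, which sorts misfolded glycoproteins for degradation, had 275 and 377 CPM in GF, against 291 and 323 CPM in SPF, and Os9, a lectin of the same route, had 307 and 306 CPM in GF, against 218 and 283 CPM in SPF. Os9 lay above SPF in both GF libraries. All 8 tested genes of prefoldin, which hands actin and tubulin to CCT, and of CCT partners were lower in fitted value. That held for 50.3% of all tested genes, and the median of the 8 was -0.43. The groups were separated, with GF lower, in 1 (12.5%), beside 16.4% of all tested genes. The median difference was -0.55 and -0.95 for GF replicates 1 and 2 against SPF replicate 1, and 0.13 and -0.21 against SPF replicate 2. The median transcript length of the 8 was 1665 nt, against 2865 nt over all tested genes. Over all genes, the deciles of length up to 2003 nt had medians from -0.36 to -0.13. Pdcl, Pdcl3 and Txndc9 are longer, at 2858, 3914 and 3381 nt. The part of length in the shift of this list was not tested. Pfdn5 had 196 and 149.9 CPM in GF, against 300.5 and 187 CPM in SPF and Vbp1 had 73.9 and 57.9 CPM in GF, against 113 and 72.4 CPM in SPF, with SPF replicate 1 highest in both. Txndc9 and Pdcl3, which bind CCT, also overlapped, at -0.26 (SE 0.27) for Txndc9 and -0.36 (SE 0.31) for Pdcl3. None of these genes passed the edgeR test over all genes.

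**Figure D4:**
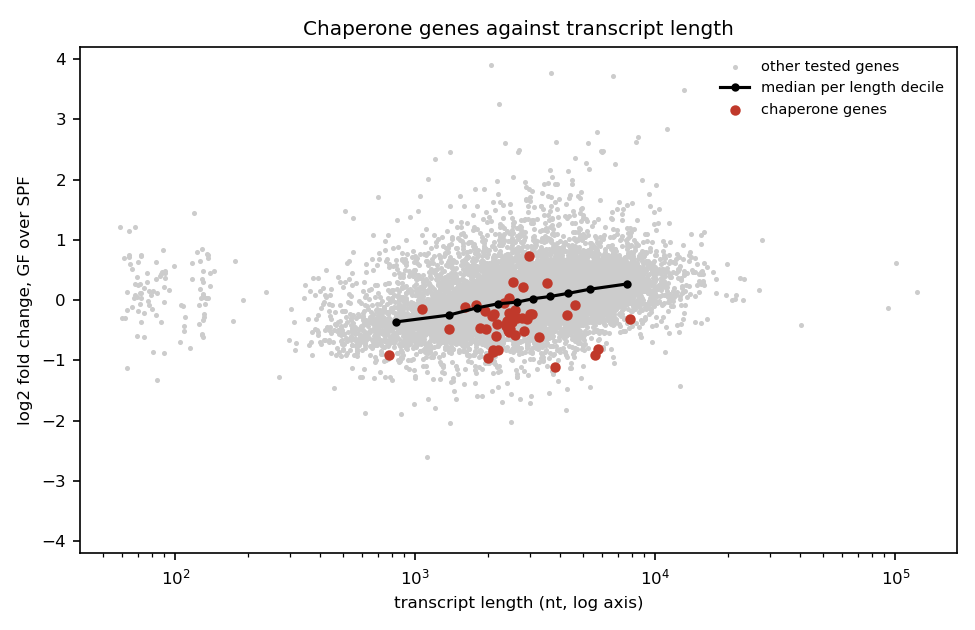
Log2 fold change of GF over SPF against transcript length in nucleotides (log axis) for all tested genes with a length, with the median per decile of length in black and chaperone genes in red. The decile medians run from -0.36 for the shortest to 0.27 for the longest transcripts. Of the 48 chaperone genes, chosen in part for low GF values, 43 lie below 0, beside 50.3% of all tested genes.

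Differences between libraries followed transcript length across all genes. Spearman's rho with length over 11202 genes, which are not independent replicates, was 0.42 for GF minus SPF, 0.52 for GF replicate 2 minus 1 and 0.58 for SPF replicate 2 minus 1. Among the 48 chaperone genes it was 0.12 for GF minus SPF. Their median length was 2458 nt, against 2865 nt over all tested genes. The share of genes with every GF value under every SPF value ran from 4.73% to 24.0% over deciles of length and was 24.0% in each of the deciles that hold lengths of 2004 to 2865 nt and 27 of the chaperone genes. In the decile of highest level, which holds 23 chaperone genes, that share was 13.2%. With each library's trend with length removed, the median log2 fold change of the 48 genes was -0.36 (0 calls), beside -0.34 without the removal. That of HSP90 and cochaperones was -0.76, beside -0.71, and that of the CCT ring -0.39, beside -0.43. The median of the BAG, small HSP and HSF genes became smaller in size, as given in the last section. So did the log2 fold change of Hspe1.

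Several chaperone genes have near-identical copies, so their counts carry an uncertainty that the replicates do not show. Of all stretches of 50 bases in the transcript, 73.2% occur in other annotated genes for Hspa8, 58.5% for Hsp90aa1, 44.8% for Hspd1, 41.9% for Dnajb6 and 36.1% for Hspe1. Hspa1a and Hspa1b share 58.8% of the stretches of Hspa1a with each other, so reads from these stretches match both genes. For Hsph1, Fkbp4, Fkbp5, Cct2 and Cct5 the share was 0%. Exons of Dnaja1, Tcp1, Cct6a, Cct7, Cct8 and Hsp90b1, among others, overlap exons of genes on the opposite strand, and the library kit does not mark strand. Hspd1 and Hspe1 overlap each other by 112 bases.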

How the data were processed

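The 4 RNA-seq libraries (2 GF, 2 SPF) came as whole-number read counts per gene, as the authors deposited them, without normalization; column names were matched to the labels. The submitters' processing notes list CASAVA, TopHat, Picard, featureCounts, Subread and edgeR and the build mm10. Versions, settings and the annotation: not given in the sources used here. Library preparation used an Illumina TruSeq kit without strand marking and 1 µg of total RNA, per the labels' protocols. For the comparison of GF with SPF, edgeR 4.0.16 (R 4.3.3) was run with TMM, filterByExpr and the quasi-likelihood F test, no covariate, and Benjamini-Hochberg adjustment over all tested genes at 0.05. The SE of a log2 fold change is its size divided by the square root of F. Levels are TMM-scaled CPM; differences between single libraries use log2 CPM with a prior count of 2. The fit was tested on simulated data that spread less than these libraries, whose common dispersion was 0.0763. The simulated libraries held no deviation shared by replicate number, so the power of the fit here was not measured.

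Lengths and positions are from GENCODE M21, with 1 transcript a gene (APPRIS rank, coding, curated RefSeq, then length), and cover 99.4% of tested genes. The members and lists were chosen with earlier results of these data known. All 49 members could be named, with values per library from a mean of 50 CPM and ranges below it. Of each other list the 4 genes of highest mean CPM and any past the threshold were named. Of marker lists, Klrb1c and Junb were named as the most abundant of theirs, and Klra4, Klra8 and the globin genes for being at 0. Klrc2, Ncr1, Eomes, Fcer1g, Jund and Ier2 were added after their values were seen. Alternatives were RLE or no scaling, no filter, DESeq2 1.42.0, the replicate number as a block, removal of each library's loess trend with length (span 0.5), and each library left out. No label says that libraries of one number share an animal or batch, so they were not paired. Plots used matplotlib 3.10.9.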

Additional observations from a re-analysis of the deposited data

How the results depend on the processing

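With 2 libraries a group, the calls depended on how the spread by replicate number was treated. Over all genes the count of calls was 0 with RLE scaling, plain library totals, no filter on low counts or the length trend removed, and 9 with DESeq2 (8 higher, 1 lower). Leaving out 1 library gave 0 to 1327 calls over all genes and 0 to 9 among chaperone genes. Deviations of same-numbered libraries correlated across genes (r = 0.71 over all tested genes, 0.877 over chaperone genes). With the replicate block, edgeR called 1206 genes (786 higher, 420 lower, 3.73% of tested genes lower) and 15 chaperone genes, all lower; the replicate block with the length trend removed gave 276 calls (165 higher, 111 lower, 0.985% of tested genes lower) and 9 among chaperone genes, all lower. No label ties the numbers to a shared source, so these counts are not preferred.

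Of the 48 log2 fold changes, 37 were negative and 2 (Fkbp5 and Bag3) positive in the reported fit and all 11 alternatives, and 9 changed sign in some. Medians with 1 library left out ran from -0.46 to -0.27 for all chaperone genes, -0.89 to -0.48 for HSP90 and cochaperones, -0.53 to -0.25 for the CCT ring, -0.45 to -0.26 for ER chaperones and -0.35 to -0.054 for the BAG, small HSP and HSF genes. For HSP70, HSP110 and HSP40 genes they ran from -0.48 to -0.15, and for mitochondrial chaperones from -0.48 to -0.27. With the length trend removed, the median was -0.34 for ER chaperones and -0.075 for the BAG, small HSP and HSF genes (-0.34 and -0.076 with the block as well); the cause was not tested. Depth limits Hspb1, which had too few counts to be tested, and Hspa1a, which had 8 counts in GF replicate 1 and 3 in SPF replicate 1.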
